A study of Drosophila melanogaster with 2 samples.

Results

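The regions described here are 567 intronic binding sites of the fly protein Sunspot (ssp) that lay more than 500 and at most 2000 bp from any annotated transcription start site (TSS). They were taken from the combined peak list, which held 4948 peaks in all and 4914 on the arms 2L, 2R, 3L, 3R, 4 and X. A peak was a member when its summit, the position of its highest signal, fell in a gene body but in no annotated exon, at that distance from the nearest TSS of any gene. The members were 11.5% of the peaks on the arms, with a 95% Wilson interval of 10.7 to 12.5%. Within that list the choice used the position of the summit alone. The list itself was filtered by the authors on how well peak ranks repeat, and leaving out exons bears on base composition. The data were chromatin immunoprecipitation followed by sequencing (ChIP-seq) from 1 group, ssp-eGFP embryo, with 2 biological replicates. Whole embryos of 0 to 24 h were used, so the tissues and stages of embryogenesis were pooled, and every sample carried the Sunspot-GFP fusion from a transgene, which the anti-GFP antibody recognised. The labels do not name the promoter that drives the fusion and give no second condition, and the control library they name was not analysed here. The lists hold no read counts, so the sequencing depth is unknown.

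Sunspot belongs to the family of proteins with a BED finger, a zinc-binding fold that contacts DNA and that also occurs in the boundary factor BEAF-32 and the promoter factor Dref. In flies it is known as a partner of Armadillo, the beta-catenin of Wingless signalling, and as a regulator of genes of cell proliferation. Introns close to a start site are a common place for enhancers and for alternative promoters, and a protein bound there can lie near the promoter without lying on it. The palindrome TATCGATA, the DNA replication-related element (DRE), is the site of Dref and overlaps the core site CGATA of BEAF-32.

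The sequence at the summits of the members was rich in A and T. The 7 strongest members on 2L, 3L, 3R, 4 and X are shown first, to let this feature be seen at the summits with the highest signal, from 50 bp before to 50 bp after the summit, read on the plus strand of the dm6 assembly. The capitals mark runs of at least 6 bases made of A and T alone. The other 3 sequences are members on these arms with TATCGATA in the window, which is in capitals there.
CG11050 (chr2L:6612667-6612767): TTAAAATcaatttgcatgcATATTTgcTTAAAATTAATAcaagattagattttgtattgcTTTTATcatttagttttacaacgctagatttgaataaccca
CG32772 (chrX:4910311-4910411): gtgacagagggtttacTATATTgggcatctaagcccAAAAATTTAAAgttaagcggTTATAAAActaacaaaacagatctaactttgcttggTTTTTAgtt
lncRNA:CR46482 (chr3L:27859383-27859483): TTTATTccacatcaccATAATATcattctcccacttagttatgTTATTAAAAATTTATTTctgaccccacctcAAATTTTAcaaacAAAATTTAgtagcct
CG3726 (chrX:5918865-5918965): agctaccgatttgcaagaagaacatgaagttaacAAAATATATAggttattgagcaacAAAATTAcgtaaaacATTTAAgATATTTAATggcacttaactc
Trl (chr3L:14759469-14759569): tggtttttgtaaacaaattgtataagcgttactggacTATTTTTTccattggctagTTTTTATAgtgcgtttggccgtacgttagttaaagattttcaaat
CG9663 (chr2L:3302121-3302221): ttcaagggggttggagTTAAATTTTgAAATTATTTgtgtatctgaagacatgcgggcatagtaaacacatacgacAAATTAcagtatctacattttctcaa
CdGAPr (chr2L:19791205-19791305): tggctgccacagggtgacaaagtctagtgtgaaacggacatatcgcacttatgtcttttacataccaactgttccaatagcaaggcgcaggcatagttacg
JYalpha (chr4:1571-1671): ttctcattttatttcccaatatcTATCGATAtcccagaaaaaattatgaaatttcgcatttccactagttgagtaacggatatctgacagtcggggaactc
Kif3C (chr4:1148098-1148198): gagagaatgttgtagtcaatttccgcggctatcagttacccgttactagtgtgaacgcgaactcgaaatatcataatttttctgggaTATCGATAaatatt
Stt3A (chrX:21053315-21053415): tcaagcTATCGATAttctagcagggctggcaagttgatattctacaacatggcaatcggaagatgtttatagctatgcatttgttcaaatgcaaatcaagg
The window of lncRNA:CR46482 held 46 bases in such runs, the longest of 17 bases, and that of CG11050 held 31 bases. The window of CdGAPr, at 46.5% G + C, held no run of this length, so the runs were not shared by every strong member.

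The peaks lay densely in this zone. The introns that satisfy the rule cover 11.43 Mb, or 8.54% of the arms, and held 49.6 members per Mb (95% Poisson interval 45.6 to 53.9). Introns over 2000 bp from a TSS held 22.1 peaks per Mb, positions within 500 bp of a TSS held 135.5 and the arms as a whole 36.7. By distance inside the zone, the density was 57.6 members per Mb between 500 and 1000 bp, 46.7 between 1000 and 1500 bp and 42.1 between 1500 and 2000 bp, with Poisson intervals of 50.7 to 65.1, 40.1 to 54.1 and 35.4 to 49.8. The intervals of the innermost and the outermost band did not overlap, and the difference was not tested. The nearest of these bands held 254 members (44.8%), the middle one 176 and the outer one 137. Steps of 100 bp showed the highest density at 500 to 600 bp, 76.6 members per Mb, and each step out to 2000 bp stood above the 22.1 of the deeper introns.

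**Figure D1:**
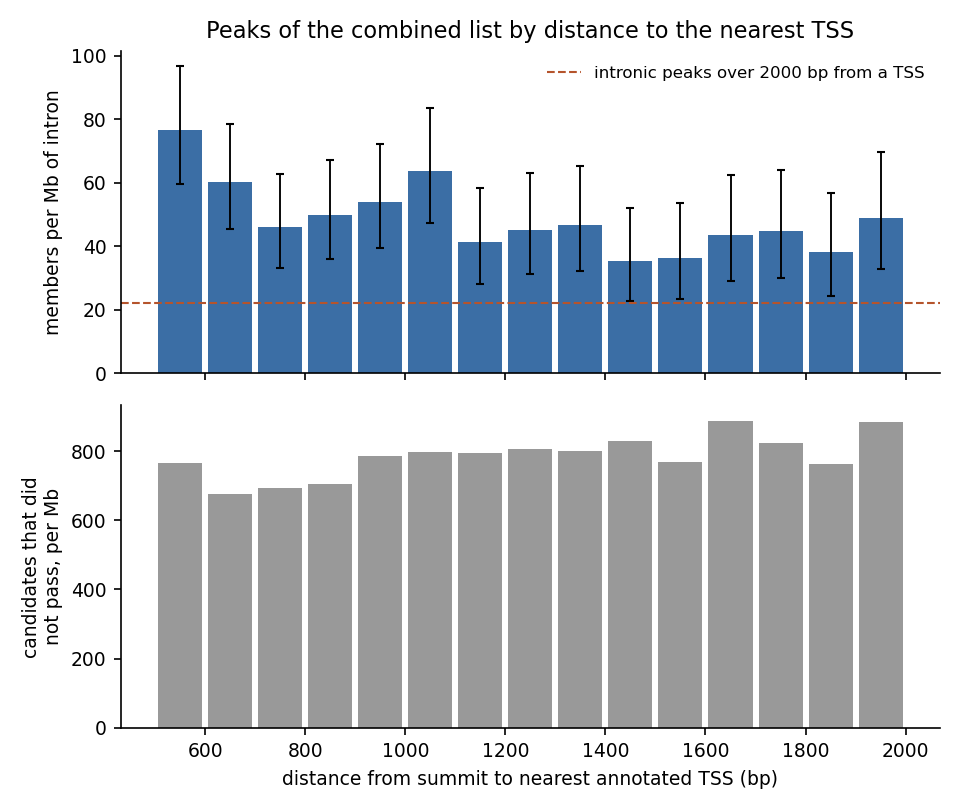
Members per Mb of eligible intron in steps of 100 bp by distance from the summit to the nearest TSS (top, bars with 95% Poisson intervals; the dashed line is the density of intronic peaks over 2000 bp away), and candidates that did not pass, per Mb of the same introns (bottom). The members are densest at 500 to 600 bp, at 76.6 per Mb, while the candidates stay between 677 and 888 per Mb.

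The candidates are the regions the authors ranked by the irreproducible discovery rate (IDR), a measure of how well ranks repeat, before applying a threshold to it. Of all candidates on the arms, 3.93% were in the combined list. Of the 9480 candidates in the zone, 567 (5.98%) were in the combined list, against 4347 of 115540 elsewhere on the arms (3.76%). The odds ratio was 1.63, with a 95% Woolf interval of 1.49 to 1.78 and an adjusted p of 9.3e-23 by a two-sided Fisher's exact test with Benjamini-Hochberg adjustment over 8 tests. Peaks and not samples were the units of this and the other Fisher tests, so their p-values describe these lists and not the spread between embryos. The rest of the arms was a mixture, and the odds ratio of 1.63 depends on its make-up. Within 500 bp of a TSS 13.9% of candidates passed, more than in the zone. In introns over 2000 bp from a TSS 2.52% passed, 2.44% of intergenic candidates and 0.688% of exonic ones. The 8913 candidates of the zone that were in no thresholded list lay at 779.8 per Mb, beside 854 per Mb in deeper introns. These densities leave out every candidate that overlaps a thresholded peak, so they are not those of all candidates. The share that passed was 7.36% between 500 and 1000 bp, 5.48% between 1000 and 1500 bp and 4.86% between 1500 and 2000 bp.

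Members had a middling signal, the value the authors' peak caller gave each peak. The median was 128.5 with quartiles of 91.0 and 206, against 111 (83.2 and 170.3) for intronic peaks over 2000 bp from a TSS and 166 (104.6 and 352) for peaks within 500 bp of one. Intergenic peaks had a median of 109 and exonic peaks one of 80.6. Of the members, 266 (46.9%) were above the median of the combined list, against 340 of the 913 deeper intronic peaks (37.2%). The odds ratio was 1.49, with an interval of 1.20 to 1.84 and an adjusted p of 0.00036 by Fisher's exact test. This call was lost when each replicate list was used alone: the odds ratio was 1.22 in the replicate 2 list and 1.20 in the replicate 1 list. It was also lost, at 1.21, for members more than 1000 bp from a TSS. Against peaks within 500 bp of a TSS, of which 61.1% were above the median, the odds ratio was 0.562 (0.468 to 0.676) with an adjusted p of 2.5e-09. Among the top 10% of all peaks on the arms by signal stood 27 members (4.76%), 13 deeper intronic peaks (1.42%) and 415 peaks within 500 bp of a TSS (16.9%). The median signal of members was 138 between 500 and 1000 bp, 127 between 1000 and 1500 bp and 115 between 1500 and 2000 bp, and the quartiles of these bands overlapped.

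**Figure D2:**
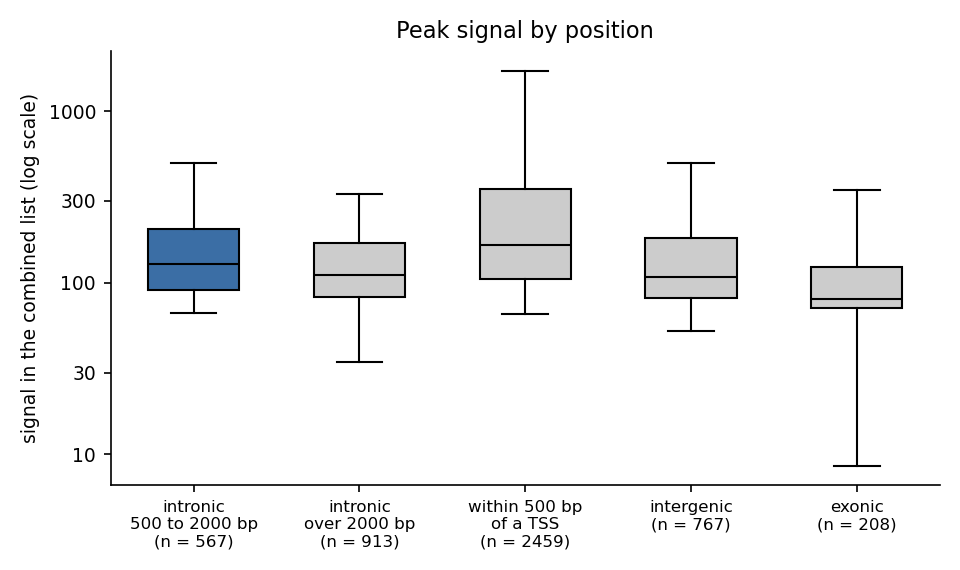
Signal in the combined list on a log axis by the position of the summit; boxes show the median and quartiles, whiskers the 5th and 95th percentiles, and n the number of peaks. Members (blue, left) have a median of 128.5, between the 111 of deeper intronic peaks and the 166 of peaks within 500 bp of a TSS.

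The 2 replicates were compared through their own thresholded lists. The replicate 1 list held 421 peaks in the zone out of 3594 on the arms, and the replicate 2 list 387 of 3408. Of the 567 members, 310 (54.7%, 50.6 to 58.7%) overlapped a peak of both lists by at least 1 base. A further 99 overlapped the replicate 1 list alone, 62 the replicate 2 list alone, and 96 neither. The share in both lists exceeded that of deeper intronic peaks, 386 of 913 or 42.3%, with an odds ratio of 1.65 (1.33 to 2.03) and an adjusted p of 6.4e-06. It was below that of peaks within 500 bp of a TSS, 1684 of 2459 or 68.5%, with an odds ratio of 0.555 (0.461 to 0.669) and an adjusted p of 2.5e-09. Both of these are Fisher's exact tests of the same family. Neither call held among peaks above the median signal, where the odds ratios were 1.85 (1.003 to 3.41) and 0.809 (0.464 to 1.41). There 250 of 266 members were in both lists, against 304 of 340 deeper intronic peaks. For peaks within 500 bp of a TSS it was 1429 of 1503. The combined list that the authors call conservative overlapped 498 members (87.8%).

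Signal and replicate overlap went together within the members. The combined list derives from the alignments of the same 2 replicates, so these measures are not independent and a link between them is partly built in. Members were split by signal into 4 groups of equal size. In the weakest, 9 of 142 members (6.34%) were in both replicate lists, in the second 42 of 142 (29.6%), in the third 117 of 141 (83.0%) and in the strongest 142 of 142. The 96 members in neither list had a median signal of 78.4 and a highest signal of 119. Of these, 92 were among the ranked candidates of both replicates, below the threshold there. Over the 310 members in both lists, the log2 ratio of the replicate 2 signal to the replicate 1 signal had a median of -0.25, quartiles of -0.46 and -0.05 and an SD of 0.49. Replicate 1 was higher for 242 of them and replicate 2 for 68; no scaling between the lists is stated, so the ratio includes any difference of scale. Spearman's rho between the replicate signals was 0.851 over the members and 0.890 over the other 2466 peaks in both lists, as a description of peaks that share the same 2 libraries. The replicate summits of a member lay a median of 16 bp apart, and within 50 bp for 243 members (78.4%).

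**Figure D3:**
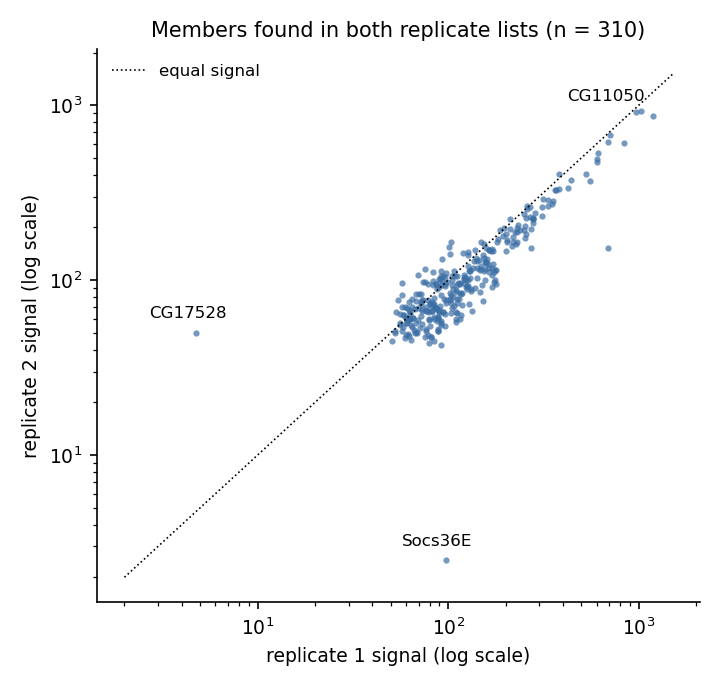
Replicate 2 signal against replicate 1 signal, both on log axes, for the 310 members found in both replicate lists; each point is a member and the dotted line marks equal signal. Most points lie just under the line, the median log2 ratio being -0.25, and the members at CG17528 and Socs36E stand far from it. CG17528 and Socs36E have combined signals of 26.7 and 2.29.

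Few members departed from this pattern, and 6 had a log2 ratio beyond 1 in either direction. The largest ratio was at CG17528, where the replicate 2 signal was 50.2, the replicate 1 signal 4.77 and the combined signal 26.7. The second largest, 0.75, was a member in CG1677 with a replicate 2 signal of 96.5 and a replicate 1 signal of 57.3. Its replicate 2 peak was also the match of a stronger member of that gene close by, so the ratio sets it against a shared peak. The smallest, -5.28, was at Socs36E, a gene of the SOCS family that restrains JAK/STAT signalling, with 2.50 in replicate 2 and 97.2 in replicate 1. The combined signal of this member was 2.29, the lowest of all members, and another combined summit lay 200 bp away. The next smallest ratio, -2.16, was at the weaker of a pair of members in lncRNA:CR46482 that share one interval. There replicate 1 had a single summit for both members (687), and replicate 2 had separate ones. Such paired summits were a feature of the weakest members. All 21 members with a signal under 20 had another combined summit 200 to 230 bp away, and 33 members (5.82%) had a stronger one within 250 bp. Deeper intronic peaks had such a neighbour in 5.15% and peaks within 500 bp of a TSS in 6.10%. Leaving out these secondary summits gave 46.7 members per Mb and lost none of the calls.

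The 25 strongest members had combined signals of 557 to 2049 and were in both replicate lists without exception. Of these, 22 lay in a first intron, 16 downstream of the nearest TSS and 21 nearest to a TSS of a gene that held them. Their replicate 1 signals were 268 to 1191 and their replicate 2 signals 231 to 925, and 24 of the 25 were higher in replicate 1.

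The strongest member lay in CG11050 (chr2L:6612511-6612913), 1030 bp downstream of the TSS of this gene. Its signal was 1191 in replicate 1, 872 in replicate 2 and 2049 in the combined list, where it ranked 91 among all peaks. The intron at its summit was 140 bp long, so the peak reached into the flanking exons. That was unusual, since 66 of the 567 intervals (11.6%) covered any exon base and 15 were wider than their intron. Adf1, which encodes a MADF-domain transcription factor, held the second, with 1021 in replicate 1 and 925 in replicate 2, in a first intron 802 bp from its TSS. The third lay in d4, a PHD finger gene, with 962 in replicate 1 and 919 in replicate 2. The fourth lay in HmgZ, an HMG-box chromatin protein gene, with 836 in replicate 1 and 612 in replicate 2. These 3 lay on arm 2R. Their log2 ratios of replicate 2 to replicate 1 were -0.14, -0.07 and -0.45, beside -0.45 at CG11050.

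Other genes with a member among these 25 encode proteins of varied roles. CG32772 had 705 in replicate 1 and 676 in replicate 2, and CG3726 had 602 and 492 in the same order. The peak in lncRNA:CR46482 had 687 in replicate 1 and 617 in replicate 2, and its nearest TSS, 1162 bp away, belonged to eIF4B, a translation initiation factor gene. In stw, the laccase gene straw that acts in hardening cuticle, the signals were 611 in replicate 1 and 533 in replicate 2, at 506 bp from the TSS. In Trl, which encodes the GAGA factor, they were 603 in replicate 1 and 476 in replicate 2, at 1530 bp. In CdGAPr, a gene for a GTPase-activating protein, they were 526 in replicate 1 and 403 in replicate 2. In norpA, the phospholipase C of phototransduction, they were 441 in replicate 1 and 374 in replicate 2. CG9663 held a pair of the 25, with combined signals of 959 and 576.

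The remaining members of the 25 had combined signals between 557 and 781. Some lay in LPCAT; NFAT, a transcription factor gene; chif, whose product is related to the replication regulator Dbf4; CG4496; and mub, a KH-domain RNA-binding protein gene. Others lay in KCNQ, a potassium channel gene; CHES-1-like, a forkhead gene; CG9837; ImpL2, whose product binds insulin-like peptides; Dhc64C, a dynein heavy chain gene; and Reph. LPCAT was the member of the 25 with the higher signal in replicate 2, 404 against 381 in replicate 1. On 3R the strongest member was CG9837 (616) and on 4 it was JYalpha (246), with 102 in replicate 1 and 142 in replicate 2.

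The members were spread over 465 host genes, 389 of which held a single member. Another 58 held 2, 14 held 3 and 4 held more. The host was protein-coding for 554 members, a non-coding RNA gene for 12 and a pseudogene for 1. CG1677 held the most, 7, in its second intron of 73902 bp. Their combined signals were 212, 209, 174, 149, 104, 94.5 and 94.3, and 5 of them were in both replicate lists, although 2 of these matched the same replicate 2 peak. Their nearest TSSs belonged to other genes: brk, the repressor of Dpp target genes, for 3 of them, unc-119 for 2, and CBP and CG42780 for 1 each. CHES-1-like held 5 members with combined signals of 621, 402, 279, 142 and 114, all in both replicate lists, although the last 2 matched the same replicate peaks. NFAT held 4, with 755, 265, 103 and 97.7, and CG42258 held 4, with 379, 179, 144 and 80.5. Moe, the moesin gene that links actin to the membrane, held 3 with 411, 106 and 82.5, and was taken among 14 genes with 3 members for its strongest one. The 4 genes with more than 3 members all lie on X.

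By arm, members were densest on X, with 141 members at 64.1 per Mb (53.9 to 75.5). Arm 3R held 132 at 50.6 per Mb (42.3 to 59.99), 2R 102 at 48.2 (39.3 to 58.5), 3L 110 at 47.7 (39.2 to 57.5) and 2L 79 at 38.2 (30.2 to 47.6). Arm 4 held 3, at 23.2 per Mb with an interval of 4.78 to 67.8, which at this number sets it apart from none of the others. The interval of X overlapped those of 3R, 2R and 3L and not that of 2L, and the difference was not tested. X was also highest in each replicate list, at 47.2 members per Mb in replicate 1 and 46.8 in replicate 2. On 2L the density was 26.6 in replicate 1 and 26.1 in replicate 2. Deeper intronic peaks on X stood at 25.7 per Mb and on 2L at 21.8, and peaks within 500 bp of a TSS at 154.3 on X and 131.4 on 2L. The median signal of members was between 123 and 133 on the 5 large arms.

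**Figure D4:**
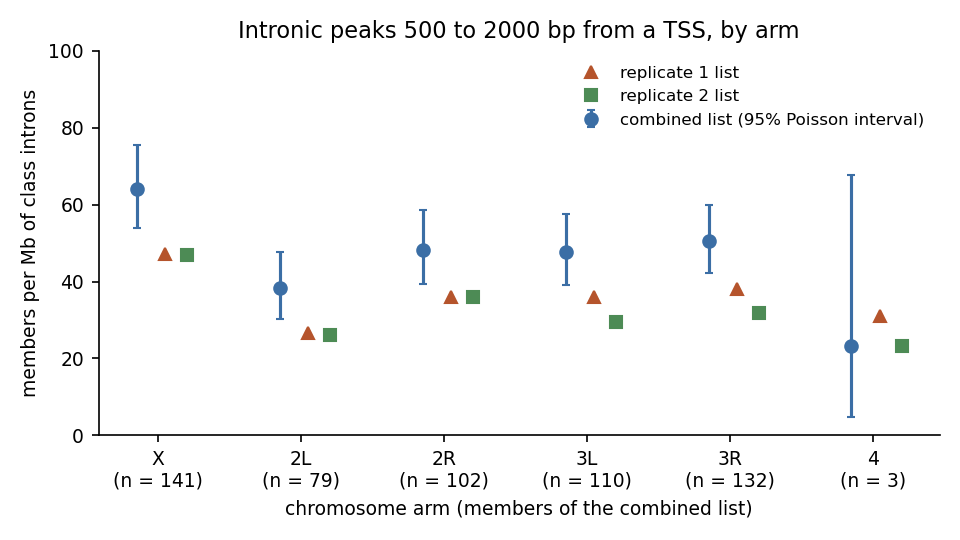
Members per Mb of eligible intron on each chromosome arm in the combined list (circles with 95% Poisson intervals) and in the list of each replicate (triangles and squares); n is the number of members in the combined list. X is highest in all 3 lists among the large arms, at 64.1, 47.2 and 46.8, and 2L lowest, at 38.2, 26.6 and 26.1.

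Within the genes, most members lay in a first intron. The intron number was the lowest over the transcripts of the host, and 453 of the 567 members (79.9%, 76.4 to 83.0%) lay in a first intron. Another 75 lay in a second intron and 39 in a later one. Of the candidates of the zone that did not pass, 62.9% (61.9 to 63.9%) lay in a first intron by the same measure. The 2 sets differed in distance to the TSS. At 500 to 1000 bp lay 3198 of the 8913 candidates and 254 of the 567 members, and the shares were not adjusted for this. The introns were long, with a median of 6144 bp for members and 5689 bp for those candidates, and 186 members lay in an intron of over 10000 bp. The summit lay downstream of the nearest TSS for 351 members (61.9%, 57.8 to 65.8%) and upstream of it for 216. The candidates that did not pass were downstream in 62.7%, and 64.6% of the eligible intron sequence was downstream. Median signals were 128 for downstream and 130 for upstream members. The nearest TSS belonged to a gene whose body held the summit for 464 members (81.8%), of which 144 lay upstream of an internal start of that gene. For 103 the nearest TSS was that of another gene, as at KCNQ, where it was the TSS of mlt.

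Some members lay close to a promoter peak. A peak within 500 bp of a TSS had its summit within 2000 bp of 155 members (27.3%, 23.8 to 31.1%), against 1055 of the 8913 candidates of the zone that did not pass (11.8%). Those candidates were chosen to overlap no thresholded peak, so none could overlap a promoter peak, as a member could. Fewer of them also lay at 500 to 1000 bp, 3198 of the 8913 against 254 of the 567 members. The 2 shares are therefore not from like sets. The median signal was 141 for these 155 members and 125 for the others. Of the 7150 protein-coding genes with over 100 bp of eligible intron, 481 held a member (6.73%). A summit in overlapping genes counted for each of them here, while the 465 hosts above take 1 gene per summit. Of the 481, 193 (40.1%, 35.8 to 44.6%) also had a peak within 500 bp of one of their TSSs, against 1670 of the 6669 genes without a member (25.04%, 24.0 to 26.1%). Genes with a member had more eligible intron, a median of 3743 bp against 584 bp. Among genes with over 3000 bp of it, the shares were 41.3% (35.5 to 47.2%) of 269 genes with a member and 24.5% (21.8 to 27.5%) of 873 without. Among those with over 500 and at most 1500 bp they were 44.4% (35.4 to 53.8%) of 108 and 26.7% (24.9 to 28.7%) of 2065. The intervals overlapped in the other length bands: 33.0% (24.0 to 43.3%) and 21.1% (18.1 to 24.5%) for genes with over 1500 and at most 3000 bp, and 31.3% (14.2 to 55.6%) and 24.9% (23.4 to 26.4%) for genes with at most 500 bp.

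Summits of members were poorer in G + C than the candidates that did not pass. The sequence within 50 bp of the summit had a median G + C content of 31.7% in members (quartiles 26.7 and 37.6%), against 44.6% (37.6 and 49.5%) in those candidates of the same zone. Windows of the same length that tile the whole eligible intron had a median of 38.6%. Deeper intronic peaks had 32.7% and peaks within 500 bp of a TSS 33.7%, so the low value was shared by other peaks. The drop was narrow. In bins of 50 bp it reached 32.3% at the summit of members, 35.5% and 35.1% at 50 bp to either side, and 43.4% and 43.9% at 250 bp. The candidates that did not pass had 43.5% at the summit. Runs of A and T of at least 6 bases made up 26.1% of the bases of the windows of members, 13.4% in those candidates and 18.7% in the tiles. Deeper intronic peaks had 24.1% and peaks within 500 bp of a TSS 25.6%, close to the members. The strongest of the 4 signal groups had a median of 29.7% G + C and the weakest 36.1%. Repeats, taken as the lower-case letters of the reference, covered most of the window for 57 members (10.1%), against 4.29% of the candidates that did not pass.

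**Figure D5:**
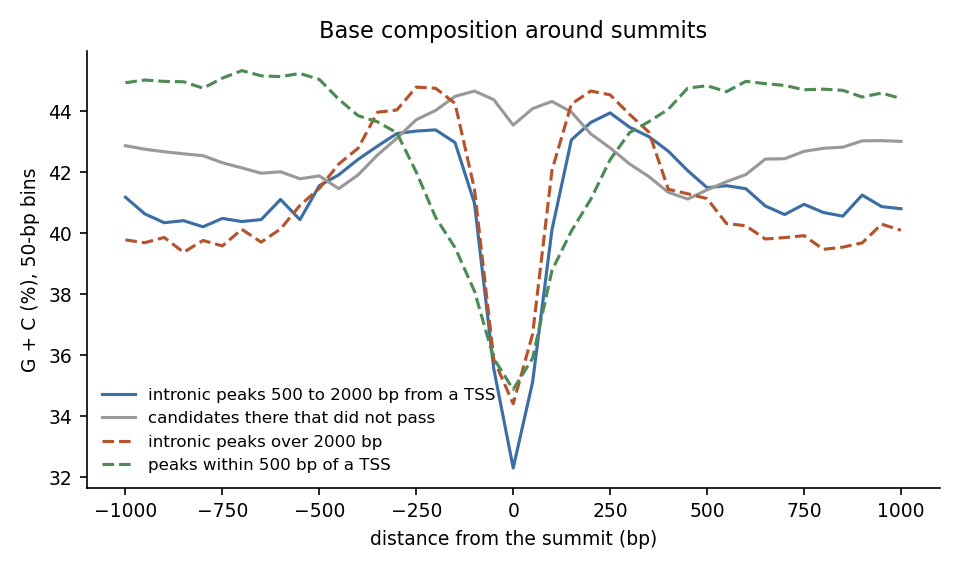
G + C content in 50-bp bins by distance from the summit, for members (blue), candidates of the same zone that did not pass (grey), intronic peaks over 2000 bp from a TSS and peaks within 500 bp of one (dashed). Members drop to 32.3% at the summit and the candidates stay at 43.5%.

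The short words most in excess over the candidates that did not pass were made of A and T alone. Of all 6-base words, counting both strands, the one with the largest excess in members over the candidates that did not pass was TTAAAA, in 32.8% of members and 13.4% of those candidates, with 31.4% in peaks within 500 bp of a TSS. The word AAGATA had the largest excess over those promoter peaks, in 13.1% of members and 7.44% of promoter peaks, with 5.03% in the candidates. The word with the largest deficit against promoter peaks was TATCGA, part of the DRE, in 5.11% of members (3.58 to 7.25%) and 15.2% of promoter peaks (13.8 to 16.7%), with 2.69% in the candidates. These words were picked by their values, and no test was made of them.

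The full DRE was rare in members. TATCGATA lay within 50 bp of the summit of 4 of 567 members (0.705%), against 119 of 2459 peaks within 500 bp of a TSS (4.84%). The odds ratio was 0.140 (0.0514 to 0.380), with an adjusted p of 7.1e-07 by Fisher's exact test. Among the 913 deeper intronic peaks 5 held it (0.548%), and the odds ratio of 1.29 had an interval of 0.345 to 4.82 and an adjusted p of 0.74. Among the candidates of the zone that did not pass 11 of 8913 held it (0.123%), an odds ratio of 5.75 (1.83 to 18.1) with an adjusted p of 0.012. This rests on 4 members, those at JYalpha, Kif3C, Stt3A and Cdk5, all under 1000 bp from a TSS. The introns at JYalpha, Stt3A and Cdk5 were 357, 384 and 62 bp long, shorter than the peaks, and that at Kif3C 1370 bp. At Cdk5 the nearest TSS was that of Flo1. The call was lost in the replicate 2 list (2.29), with the word sought within 100 bp (2.63) and with CGATA in its place (1.27). It was also lost among peaks above the median signal, where the odds ratio was 6.13 on 2 members. The median G + C content was 44.6% in the candidates that did not pass and 31.7% in members. The shares were not adjusted for this. JYalpha and Kif3C were in both replicate lists, with 142 and 106 in replicate 2 and 102 and 69.4 in replicate 1. Stt3A and Cdk5 were in the replicate 1 list alone. JYalpha encodes a sodium pump subunit, Kif3C a kinesin, Stt3A a subunit of the oligosaccharyltransferase and Cdk5 a kinase known from neurons. The first 3 of these windows are printed above.

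Of the other words sought on both strands, most stood near their share in the tiles. The motif 1 of promoters, GGTCACACT, was in 0 members, with an upper Wilson limit of 0.673%, against 1.46% of peaks within 500 bp of a TSS. CGATA was in 12.3% of members (9.89 to 15.3%), 9.95% of the candidates that did not pass and 11.1% of the tiles, against 25.7% of promoter peaks. The E2F words TTTCCCGC and TTCCCGC were in 1 and 3 members, and 0.466% and 0.888% of the tiles. The word ATCAAAG of the Wingless effector Tcf was in 12 members (2.12%, 1.21 to 3.66%) and 2.05% of the tiles. GAGAG, the word of the GAGA factor, was in 10.6% of members and 11.2% of the tiles, and its longer form GAGAGAG in 1.06% and 1.69%. CAGGTAG, the word of Zelda, was in 2 members. Above their share in the tiles, by intervals that did not overlap, were TATAAA, in 23.8% (20.5 to 27.5%) against 14.6%, AGATAA, in 10.1% (7.84 to 12.8%) against 7.02%, and GTATTT, in 15.2% (12.5 to 18.4%) against 10.6%. So were the rarer TATCGATA, in 0.705% (0.275 to 1.80%) against 0.217%, and GGTCACAC, part of motif 1, in 3 members (0.529%, 0.180 to 1.54%) against 0.140%. AGATAA overlaps the word AAGATA given above. TATAAA was also in 22.1% of deeper intronic peaks and 21.1% of promoter peaks, and GTATTT in 12.5% and 15.7%. AGATAA was in 6.79% and 7.16% in the same order. The tiles were richer in G + C, at a median of 38.6% against 31.7% in members, and the shares were not adjusted for this. CACACACA was below its share in the tiles, in 1.23% (0.599 to 2.53%) against 2.71%. The E-box CAGCTG was in 3.35% of members and 3.55% of the tiles, and the E-box CACGTG in 0.705% and 1.13%. TTATCG was in 3.88% and 4.55%, TAATTA, a homeodomain word, in 10.4% and 8.35%, and ATTTGCAT, the word of POU proteins, in 2.29% and 2.18%. TGACTCA, the AP-1 word, was in 0.882% and 1.26%, and CCAAT in 20.1% and 19.9%. For each of these the interval of the members held the share of the tiles. A word in a window is a description and not evidence of a bound site.

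Genes of the Wingless pathway and those linked to Sunspot held members at a share near that of all genes. Of the 24 with eligible intron, 2 held a member (8.33%, 2.32 to 25.8%), beside 6.73% of all 7150 protein-coding genes, and at 25.5 members per Mb against 50.2 over those genes. These were sgg, the kinase that marks Armadillo for destruction, and Wnt4, a Wnt ligand gene. Their replicate 2 signals were 51.5 and 59.7, and neither overlapped a peak of the replicate 1 thresholded list. Both were weak, at 105.3 and 98.3 in the combined list. The TSS nearest to the Wnt4 member, 749 bp away, was that of CG31909.

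The counts for the other lists are given beside the same 6.73% and 50.2 per Mb, since genes with long introns have more room for a member. The 50.2 counts 591 members, since a summit in overlapping genes counted for each of them. A gene counted when its body held the summit, whichever TSS was nearest. At the members named below in EcR, Sik3, pum, kirre, kis and brm, the nearest TSS was that of another gene. Genes for BED finger, insulator and promoter-binding factors held members in 3 of 14 (21.4%, 7.57 to 47.6%), at 233 per Mb over 21.4 kb of eligible intron. These were Trl, psq and jigr1. Apart from the strong peak in Trl, its second member (103) was in neither replicate list, jigr1 (86.0) was in the replicate 1 list alone and psq (75.1) in neither. The density also counts a secondary summit in psq (7.16), in neither list. Developmental transcription factor genes held members in 12 of 71 (16.9%, 9.94 to 27.3%), at 57.9 per Mb. The strongest of them were 2 members of NFAT, zfh1 (450, with 250 in replicate 1 and 194 in replicate 2), a zinc finger homeodomain gene, and EcR (275), the ecdysone receptor gene. Signalling receptor and kinase genes held members in 8 of 45 (17.8%, 9.29 to 31.3%), at 95.7 per Mb. Mad, which transduces Dpp signals, had 270.2 in replicate 1 and 229 in replicate 2, and InR, the insulin receptor gene, had 176 and 100.01 in the same order. Src64B (206) and Sik3 (149.95) followed.

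Cytoskeleton and muscle genes held members in 8 of 39 (20.5%, 10.8 to 35.5%), at 79.9 per Mb. They were led by Msp300 (422), Moe (411), mbc (275) and tsr (222), the cofilin gene. At mbc, an activator of Rac in muscle fusion, replicate 2 was higher, at 164, than replicate 1, at 104. RNA-binding and translation-control genes held members in 6 of 35 (17.1%, 8.10 to 32.7%), at 40.1 per Mb, below the 50.2 of all genes. They were led by brat (507), ps (243), pum (173) and elav (133), of which elav was in the replicate 1 list alone. Lipid, sugar and hormone metabolism genes held members in 3 of 25 (12%, 4.17 to 29.96%), at 77.6 per Mb, which were bmm, the lipase gene brummer (274), Lsd-2, a lipid droplet coat gene (256), and SREBP (129). Axon guidance, adhesion and synapse genes held members in 5 of 55 (9.09%, 3.95 to 19.6%), at 25.3 per Mb, led by Ten-a (219), kirre (190.5) and dlg1 (186). Chromatin regulator genes held members in 3 of 42 (7.14%, 2.46 to 19.0%), at 108 per Mb. They were ph-p (203), kis (99.5) and brm (92.5), and the density also counts secondary summits in kis (4.77) and ph-p (3.31). Cytosolic ribosomal protein genes, of which 14 of 93 had eligible intron, held 0, with an upper limit of 21.5%.

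The members nearest to the limits of the rule were as follows. At the inner limit they lay in Rgl at 501 bp (81.4), pAbp at 502 bp (193) and MESR3 at 503 bp (204). The intronic peaks just inside 500 bp of a TSS lay in CG5171 at 498 bp (142) and in jar and CG43736 at 497 bp (155 and 103). At the outer limit the members lay in toc at 1998 bp (76.7), RhoU at 1987 bp (106) and shot at 1984 bp (69.1). The peaks just beyond it lay in RhoGAP18B at 2002 bp (187), Dys at 2004 bp (129) and CG43658 at 2007 bp (80.8).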

How the data were processed

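Per the labels, anti-GFP ChIP-seq was done on sonicated material of 200 to 800 bp from 2 biological replicates. The authors deposited peak lists on dm6. The peak signal in column form was deposited by the authors with no scaling between lists stated, and the ranked lists deposited by the authors also give −log10 of the global IDR, from which candidates at an IDR of 0.01 or lower were found. The sources used here name no peak caller and no aligner. In the ranked lists for both replicates, 16 columns carry values whose replicate could not be worked out, and these were set aside. Depth is unknown, so no counting precision is given for signals.

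Summits were placed on the Ensembl annotation, release 115, with transposable elements not counted as genes. A member was named by the gene whose body held its summit, the protein-coding one first and then the shortest. The dm6 sequence was read from the RefSeq Release 6 FASTA. Candidates that overlapped no thresholded list (120106 on the arms) were those that did not pass, and 115 of them had an IDR past the threshold. A replicate peak was matched by an overlap of 1 base and the nearest summit. Words were looked up on either strand, up to 50 bp from each summit. Shares have Wilson and densities Poisson intervals of 95%. Fisher's exact tests were two-sided with Woolf intervals and Benjamini-Hochberg adjustment over 8 tests, at 0.05. Intervals over neighbouring peaks treat them as independent.

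The members, the lists, the words and the rule for named genes were chosen with earlier results of these data known. The rule named the 25 strongest members, up to 4 members by signal of each gene list, 3 on each side of each distance limit, the 2 largest and 2 smallest replicate ratios, the 5 hosts with the most members and the strongest of each arm. One gene that the rule named is not reported here. Members with TATCGATA, brk and unc-119 were named after their values were seen. Alternatives were the conservative list, each replicate list alone, peaks above the median signal, other distance limits, protein-coding TSSs, reciprocal overlap of 50%, replicate summits within 100 bp, a window of 100 bp, CGATA, and a background without candidates past the IDR threshold. Leaving out peaks with a stronger summit within 250 bp was added after seeing the data. The code was tested on simulated data. Analyses used Python 3.11.15, numpy 2.4.6, pandas 2.3.3 and scipy 1.17.1.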

Additional observations from a re-analysis of the deposited data

How the results depend on the processing

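The alternatives gave 99 values in all, each a reported result under another setting. Of these, 78 kept the direction and the side of the threshold, or a value inside the interval of the reported one. For the replicate ratio the limit was a shift smaller than the SD of 0.49. A test that was not called and stayed so also counted as kept. The share of peaks in the zone was 6.37% with limits of 1000 and 2000 bp and 14.3% with 300 and 2000 bp. Members per Mb were 44.6 for the limits of 1000 and 2000 bp, 23.3 for peaks above the median signal, and 33.9 to 36.8 in the single replicate lists. The share of members at 500 to 1000 bp was 36.1% with the limit of 300 bp, 50.8% above the median signal, and at most 49.2% in a single replicate list, the lowest being 48.8%. For signal above the median against deeper introns, the odds ratio was 1.20 to 1.22 in single replicate lists and 1.21 from 1000 bp on. For overlap with both replicate lists, it was 1.85 against deeper introns and 0.809 against promoter peaks among peaks above the median signal. For TATCGATA against candidates that did not pass, it was 2.29 to 5.34 in single replicate lists, 2.63 within 100 bp, 1.27 for CGATA, 6.13 above the median signal and 2.02 from 1000 bp on. That last value rests on 0 members and comes from adding 0.5 to each cell, while the share itself was lower in members. For TATCGATA against deeper introns, it was 0.851 above the median signal and 0.263 from 1000 bp on. The 0.263, with an interval of 0.0145 to 4.78, likewise rests on 0 of 313 members and on adding 0.5 to each cell. The cause of these changes was not tested. Depth is unknown, so what it limits could not be stated. No paired analysis was possible because the labels give 1 group.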
